A study of Mus musculus with 16 samples.

Results

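The Ly6 surface genes examined here were Ly6a, Ly6c1, Ly6c2, Ly6e, Ly6g and Ly6i, chosen by symbol because both myeloid subsets of the study were sorted on the Ly6C and Ly6G proteins. Of these 6 genes, 5 were measured among 24421 gene symbols, and Ly6g was not analysed here. Myeloid-derived suppressor cells (MDSCs) were sorted from the spleens of C57BL/6 mice carrying subcutaneous B16.F10 tumors, a mouse melanoma line, to ask how loss of the inflammasome sensor NLRP3 changes them. The monocytic subset (M-MDSCs) was gated as CD11b-high Ly6C+ Ly6G- and the granulocytic subset (G-MDSCs) as CD11b-high Ly6C- Ly6G+. Each of 8 mice gave both subsets, which makes 4 groups of 4 libraries, namely WT M-MDSCs, Nlrp3-/- M-MDSCs, WT G-MDSCs and Nlrp3-/- G-MDSCs. All mice bore tumors, so no tumor-free control enters any comparison. Age and sex were matched by the study, with no value tied to a library. The Nlrp3-/- mice lack the gene in the whole body through an EGFP cassette with its own poly(A) signal joined to the start codon in exon 2, and every cell type of the host carries that allele. The antibody clone listed for Ly6C in the study's methods, RB6-8C5, is the clone also listed there for Gr1, while Ly6G was stained with clone 1A8.

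Ly6 proteins are small surface proteins with a three-finger fold that a glycosylphosphatidylinositol (GPI) anchor holds on the outer membrane. Ly6C is the classical marker of inflammatory monocytes and is encoded by the neighbouring genes Ly6c1 and Ly6c2, and Ly6G marks mouse neutrophils. Ly6a encodes Sca-1, known from hematopoietic stem cells and activated T cells, and it is, like Ly6e, induced by interferons. All 6 genes lie in 1 cluster on chromosome 15 (mm10), in the order Ly6e (74955051 to 74959905, plus strand), Ly6i (74979534 to 74983430, minus), Ly6a (74994877 to 74998031, minus), Ly6c1 (75044018 to 75048830, minus), Ly6c2 (75108158 to 75111970, minus) and Ly6g (75155240 to 75159126, plus).

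Because the QuantSeq kit reads the 3′ end of a transcript, the likeness of these ends decides how well the genes can be told apart. The last 500 bases of Ly6c1 and Ly6c2 were 98.2% identical over 493 aligned bases, and 50 of the 426 words of 75 bases in each (11.7%), the read length, occurred in both genes. The ends of Ly6a, Ly6e and Ly6i shared 0 such words with another gene. Ly6a and Ly6i were 89.1% identical in this stretch, and Ly6e was 59.4% to 64.9% identical to the others. Counts of Ly6c1, the lower of the Ly6c pair, are therefore uncertain, since reads of the shared stretch do not tell the genes apart, and how many were exchanged was not tested. Upstream of the start the pair is less alike. RefSeq promoters were found for 3 of the 6 genes (Ly6c1, Ly6c2 and Ly6g), and the Ly6c pair is shown because its transcripts differ widely in level here while their ends are nearly the same. The 250 bases before the start are given 5′ to 3′ on the minus strand of GRCm38.p6, chr15:75048838-75049087 for Ly6c1 and chr15:75111972-75112221 for Ly6c2, with matches to GAGGAAG in capitals.
Ly6c1: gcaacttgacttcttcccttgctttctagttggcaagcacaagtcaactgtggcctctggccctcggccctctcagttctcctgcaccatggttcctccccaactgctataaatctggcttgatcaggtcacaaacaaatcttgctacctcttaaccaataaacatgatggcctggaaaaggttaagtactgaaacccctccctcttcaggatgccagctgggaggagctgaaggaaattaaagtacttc
Ly6c2: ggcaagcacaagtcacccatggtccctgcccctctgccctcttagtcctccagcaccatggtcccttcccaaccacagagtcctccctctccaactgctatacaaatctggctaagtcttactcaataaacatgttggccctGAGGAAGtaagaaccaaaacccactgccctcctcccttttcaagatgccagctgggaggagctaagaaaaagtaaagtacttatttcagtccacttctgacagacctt
The windows were 77.7% identical over 215 aligned bases. GAGGAAG, a core bound by ETS factors such as PU.1, was searched on both strands after the sequences had been seen, and occurred 1 time in the Ly6c2 window and 0 times in the Ly6c1 window, against 10.6% of 32851 RefSeq promoter windows of this length. Windows at another start held 1 match for Ly6c1 and 2 for Ly6c2, the latter overlapping the window shown. The core of the interferon-stimulated response element (ISRE) and the STAT site TTCNNNGAA, searched on both strands, had 0 matches in both windows shown and occurred in 2.98% and 7.02% of all promoters. These matches are letters only, and binding was not measured.

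Between 2295967 and 6079866 counts were available per library, the median of the 16 being 4839508.5. Levels are given as CPM, counts scaled to the library size and by TMM normalization over the 16 libraries, on which 3 counts, taken as the smallest amount shown, equal 0.348 to 1.17 CPM. A 3′ kit counts a transcript from its end, so these values were not divided by length. Nlrp3 itself had 4 to 11 counts in M-MDSC libraries of Nlrp3-/- mice against 219 to 632 in WT, and 21 to 59 against 744 to 1365 in G-MDSCs, as the labels give. Markers of classical monocytes summed to 12700 to 20500 CPM in M-MDSCs and 2550 to 3860 CPM in G-MDSCs, and neutrophil markers to 119000 to 179000 CPM in G-MDSCs. In M-MDSCs the neutrophil sum was 1530 to 2650 CPM in 7 libraries and 9140 CPM in WT M-MDSCs replicate 2. The M-MDSC fold changes of the Ly6 genes are given with and without that library. In M-MDSCs the Ly6 genes together took 0.218% to 0.349% of the counts in WT mice and 0.330% to 0.502% in Nlrp3-/- mice, and in G-MDSCs 0.0599% to 0.0781% and 0.0945% to 0.116%. The ranges of WT and Nlrp3-/- M-MDSCs meet between 0.330% and 0.349%. Most of these counts were Ly6c2 and Ly6e, and the gate on Ly6C selects for a higher share in M-MDSCs. The shares are of raw counts, which the most abundant genes affect. The 20 top genes took 21.2% to 30% in WT and 15.2% to 21.1% in Nlrp3-/- M-MDSCs, and 33.2% to 43.2% and 27.9% to 29.8% in G-MDSCs. How often other genes separate the groups in this way was not counted. In such bulk samples fewer cells of a type and less RNA per cell cannot be told apart.

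**Figure D1:**
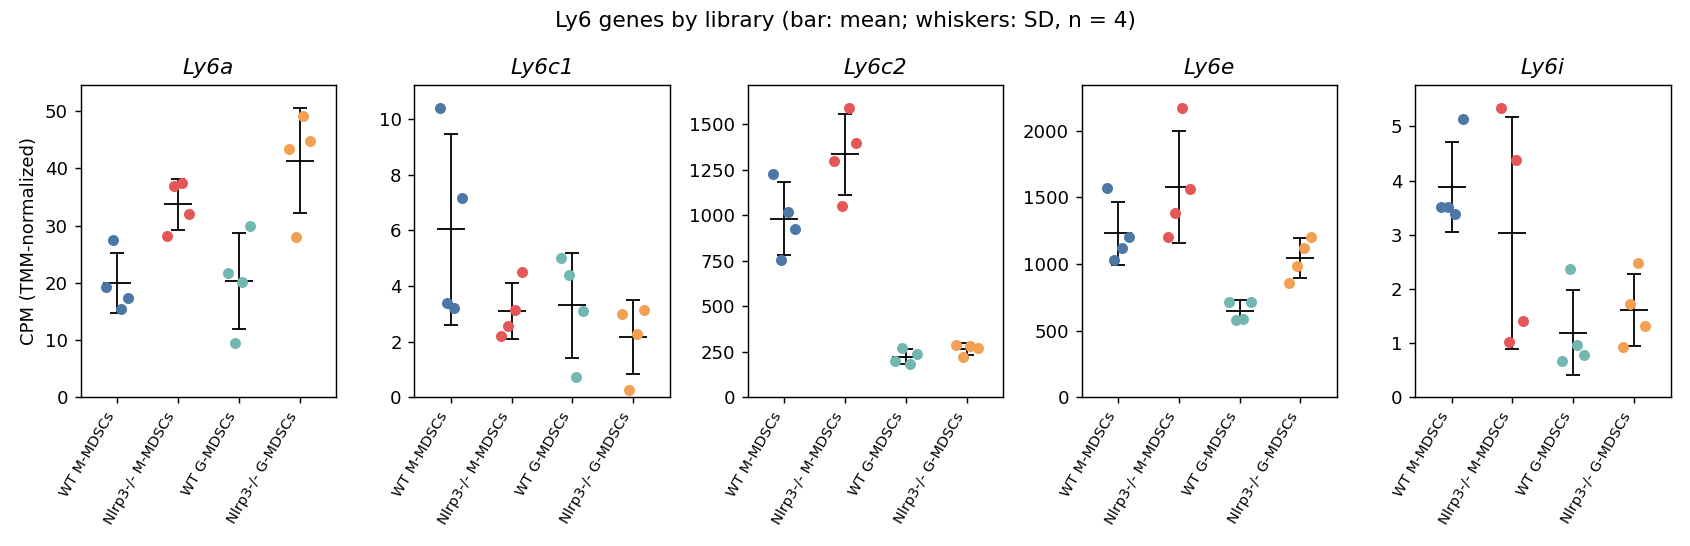
CPM (TMM-normalized, vertical axes from 0) of the 5 measured Ly6 genes in each of the 16 libraries, by group, with the mean as a bar and the SD (n = 4) as whiskers. Ly6c2 lies between 181 and 1590 CPM, Ly6e between 578 and 2170 CPM, Ly6a between 9.46 and 49.2 CPM, and Ly6c1 and Ly6i mostly below 6 CPM, near the level of a few counts.

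The first question was how the gene of the sorting marker Ly6C was expressed. Ly6c2 was the main source of Ly6c transcripts in both subsets. In WT M-MDSCs the 4 libraries had 1230, 752, 1020 and 925 CPM of Ly6c2, and in Nlrp3-/- M-MDSCs 1300, 1050, 1590 and 1400 CPM. In WT G-MDSCs it had 199, 273, 181 and 237 CPM, and in Nlrp3-/- G-MDSCs 287, 219, 283 and 273 CPM. Every M-MDSC library thus lay above every G-MDSC library, which the gate on Ly6C protein selects for, and the values are given without a test. Within a mouse the M-MDSCs had 2.75 to 6.2 times as much Ly6c2 as the G-MDSCs in WT and 4.54 to 5.64 times in Nlrp3-/- mice. The lowest of these ratios came from the WT mouse whose M-MDSC library held the high neutrophil sum. G-MDSCs, gated as Ly6C-, still had 597 to 1367 counts of Ly6c2 per library, far above the 3 counts taken as the floor.

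Between genotypes Ly6c2 did not pass the test in either subset. A gene was called at a Benjamini-Hochberg adjusted p under 0.05 and a fold change above 1.5. Its means were 983 ± 201 (SD, n = 4) CPM in WT and 1340 ± 228 (SD, n = 4) CPM in Nlrp3-/- M-MDSCs, and the groups overlapped. The log2 fold change of Nlrp3-/- over WT was 0.47 (SE 0.19, adjusted p = 0.123, quasi-likelihood test of edgeR), and 0.37 without WT M-MDSCs replicate 2. In G-MDSCs the means were 222 ± 41.1 (SD, n = 4) and 265 ± 31.4 (SD, n = 4) CPM, with a log2 fold change of 0.16 (SE 0.17, adjusted p = 0.539). The genotype effects of Ly6c2 in the subsets differed by -0.19 on the log2 scale (SE 0.26, adjusted p = 0.992).

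Ly6c1, known mainly from endothelial cells, was sparse. A library held 18 to 56 of its counts among WT and 15 to 35 among Nlrp3-/- samples of M-MDSCs, and 3 to 15 and 1 to 13 among those of G-MDSCs. Of the reads counted on either Ly6c gene, Ly6c1 took 0.313% to 0.834% in WT and 0.169% to 0.319% in Nlrp3-/- M-MDSCs, and 0.400% to 2.45% and 0.112% to 1.14% in the G-MDSCs. In M-MDSCs the WT libraries had 10.4, 3.37, 3.21 and 7.18 CPM and the Nlrp3-/- libraries 2.21, 2.56, 3.13 and 4.49 CPM, so that WT replicates 1 and 4 stood above the other 6. The log2 fold change was -0.92 (SE 0.44, adjusted p = 0.188 from edgeR), or -1.12 without WT M-MDSCs replicate 2, and in G-MDSCs it was -0.67 (SE 0.70, adjusted p = 0.547). At this depth no genotype difference of Ly6c1 was detectable. Defining endothelial markers were at 0 in whole groups, among them Tek and Emcn in all 4 groups, and the 11 markers of that list summed to 25.0 to 81.5 CPM. Most of that sum was Pecam1, which leukocytes also express, with group means of 26.7 to 60.8 CPM. Kdr, Eng, Esam and Egfl7 were counted in all 4 groups, with means of 0.376 to 4.41 CPM, and the part of endothelial cells in the Ly6c1 values was not tested. When the counts of Ly6c1 and Ly6c2 were added, the log2 fold changes were 0.46 in M-MDSCs and 0.16 in G-MDSCs, on the same side of the threshold as for Ly6c2 alone.

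Ly6a, the Sca-1 gene, was higher in Nlrp3-/- mice in both subsets. In M-MDSCs the WT libraries had 19.3, 27.5, 15.5 and 17.4 CPM and the Nlrp3-/- libraries 28.2, 37.0, 37.5 and 32.1 CPM. All 4 Nlrp3-/- values lay above all 4 WT values, although the closest pair, WT replicate 2 and Nlrp3-/- replicate 1, was less than 1 CPM apart. The log2 fold change was 0.77 (SE 0.21, 1.7-fold, adjusted p = 0.0373, edgeR), and Ly6a was the only 1 of the 5 Ly6 genes called. Of all 9986 genes tested in M-MDSCs, 3.51% were called higher in Nlrp3-/- mice, and in 7.58% all 4 Nlrp3-/- libraries lay above all 4 WT libraries. Without WT M-MDSCs replicate 2 the log2 fold change was 0.98 (adjusted p = 0.0209). The call is close to the threshold. It was lost without WT replicate 1, 3 or 4 or Nlrp3-/- replicate 2, 3 or 4, where the log2 fold change was 0.66 to 0.77 and the adjusted p 0.0592 to 0.108, and in a fit of all 16 samples (0.75, adjusted p = 0.0834).

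In G-MDSCs the WT libraries had 21.7, 9.46, 20.1 and 29.9 CPM of Ly6a and the Nlrp3-/- libraries 43.4, 28.1, 49.2 and 44.8 CPM. The groups overlapped by 1 pair, WT replicate 4 lying above Nlrp3-/- replicate 2. The means were 20.3 ± 8.41 (SD, n = 4) and 41.4 ± 9.19 (SD, n = 4) CPM, and the log2 fold change was 0.95 (SE 0.30, 1.93-fold, adjusted p = 0.0401 from edgeR). Of the 9273 genes tested in G-MDSCs 4.70% were called higher in Nlrp3-/- mice, and 2 of the 4 Ly6 genes tested were, Ly6a and Ly6e. The call of Ly6a was lost without WT replicate 1, 2 or 3 or Nlrp3-/- replicate 1, 3 or 4, with log2 fold changes of 0.72 to 0.97 and adjusted p of 0.0586 to 0.0991, and under a correction for GC content and length (0.91, adjusted p = 0.0543). The genotype effects of Ly6a in M-MDSCs and G-MDSCs differed by 0.29 on the log2 scale (SE 0.39, adjusted p = 0.992). That model of all 16 samples called 3 of 10696 genes (0.0280%) and 0 of the 5 Ly6 genes by edgeR, 480 genes having an unadjusted p under 0.05, while DESeq2 called 8 genes.

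Markers of macrophages moved with the genotype beside Ly6a. Their sum was 106 to 143 CPM in WT and 215 to 387 CPM in Nlrp3-/- M-MDSCs, and 410 to 761 and 954 to 1210 CPM in G-MDSCs. The largest part of the G-MDSC sum was Slc40a1, with means of 447 CPM in WT and 595 CPM in Nlrp3-/- mice. In M-MDSCs its means were 6.02 and 19.5 CPM. Of the 11 markers edgeR called 8 higher in M-MDSCs, 7 higher in G-MDSCs and 0 lower. An unadjusted p under 0.05 was found for 8 and 8 in the higher and 0 in the lower direction. DESeq2 called 8 and 7 higher and 0 lower. T and NK cell markers, a lineage that can carry Sca-1, summed to 173 to 237 CPM in WT and 220 to 414 CPM in Nlrp3-/- M-MDSCs. In G-MDSCs they summed to 226 to 360 CPM in WT and 320 to 440 CPM in Nlrp3-/- mice. Of these markers 1 of 14 was called higher and 0 lower in M-MDSCs, and 2 of 13 higher and 1 lower in G-MDSCs. On the list of primary granules and progenitors the genes called lower, 2 of 7 in M-MDSCs and 2 of 3 in G-MDSCs, were the cell cycle genes Mki67 (-2.08, SE 0.41 in M-MDSCs and -2.74, SE 0.51 in G-MDSCs) and Top2a (-1.63, SE 0.42 and -1.99, SE 0.36), while the other genes tested were not called. For comparison with these lists, edgeR called 351 of all 9986 genes tested in M-MDSCs higher (3.51%) and 709 lower. In G-MDSCs it called 436 of 9273 higher (4.70%) and 1086 lower. An unadjusted p under 0.05 was found for 3002 of all genes tested in M-MDSCs and 2997 in G-MDSCs. Without WT M-MDSCs replicate 2, Mki67 had -1.60 (adjusted p = 0.0217 from edgeR) and Top2a -1 (adjusted p = 0.0673) in M-MDSCs, and 7 of the 11 macrophage markers were called higher. That library had a sum of 687 CPM on the granule and progenitor list, against 216 to 235 CPM in the other WT M-MDSCs. The part of these cells in the Ly6a difference was not tested.

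Ly6e encodes a widely expressed, interferon-induced surface protein known to restrict the entry of coronaviruses. Its genotype difference was called in G-MDSCs, where the WT libraries had 716, 578, 586 and 716 CPM and the Nlrp3-/- libraries 860, 987, 1120 and 1200 CPM. All 4 Nlrp3-/- libraries lay above all 4 WT libraries, as for 12.0% of all genes tested there. The log2 fold change was 0.60 (SE 0.16, 1.51-fold, adjusted p = 0.0190 from edgeR), just past the fold minimum of 1.5. The call was lost without WT replicate 2 or 3 or Nlrp3-/- replicate 3 or 4, with log2 fold changes of 0.54 to 0.57, and under the correction for GC content and length, which lowered the value to 0.34 (adjusted p = 0.171). The Ly6e transcript has 55.4% GC and 2281 bases, against 48.1% to 50.4% GC and 822 to 1156 bases for the other Ly6 genes. In M-MDSCs the WT libraries had 1570, 1030, 1120 and 1200 CPM and the Nlrp3-/- libraries 1200, 1380, 2170 and 1560 CPM. These groups overlapped, and the log2 fold change of 0.38 (SE 0.20, adjusted p = 0.227) was not called, nor was it without WT M-MDSCs replicate 2 (0.31). The difference between the genotype effects was 0.32 on the log2 scale (SE 0.27, adjusted p = 0.992).

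Ly6i, a close relative of Ly6c expressed in myeloid cells, was counted 15 to 25 times in each WT and 6 to 46 times in each Nlrp3-/- library of M-MDSCs. The WT libraries had 3.52, 3.51, 3.38 and 5.13 CPM, and the Nlrp3-/- libraries 5.34, 1.02, 4.38 and 1.41 CPM. The Nlrp3-/- libraries fell on both sides of the WT libraries, and the log2 fold change was -0.29 (SE 0.52, adjusted p = 0.751 from edgeR), or -0.32 without WT M-MDSCs replicate 2. In G-MDSCs it had 2 to 7 counts in WT and 4 to 12 in Nlrp3-/- libraries and was left out of the genotype comparison by the filter on low counts.

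**Figure D2:**
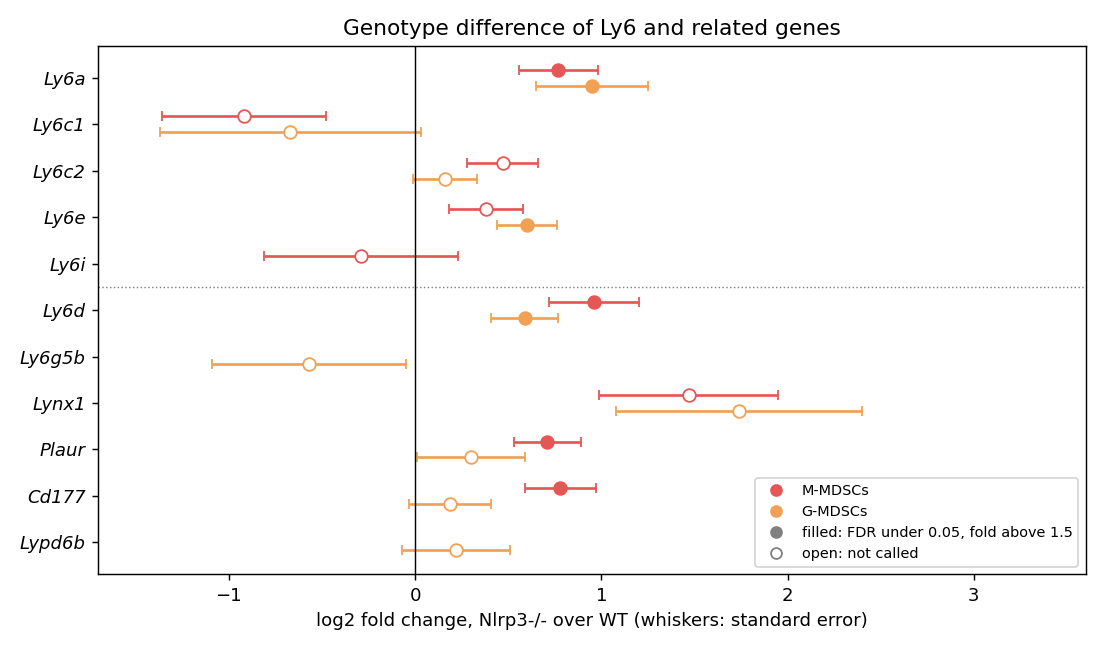
Log2 fold change of Nlrp3-/- over WT (horizontal axis, whiskers are standard errors) in M-MDSCs and G-MDSCs for the Ly6 genes above the dotted line and other tested genes of the superfamily below it, filled where called. Ly6a is called in both subsets at 0.77 and 0.95 and Ly6e in G-MDSCs at 0.60, and Ly6c1 is below 0 in both without being called.

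**Figure D3:**
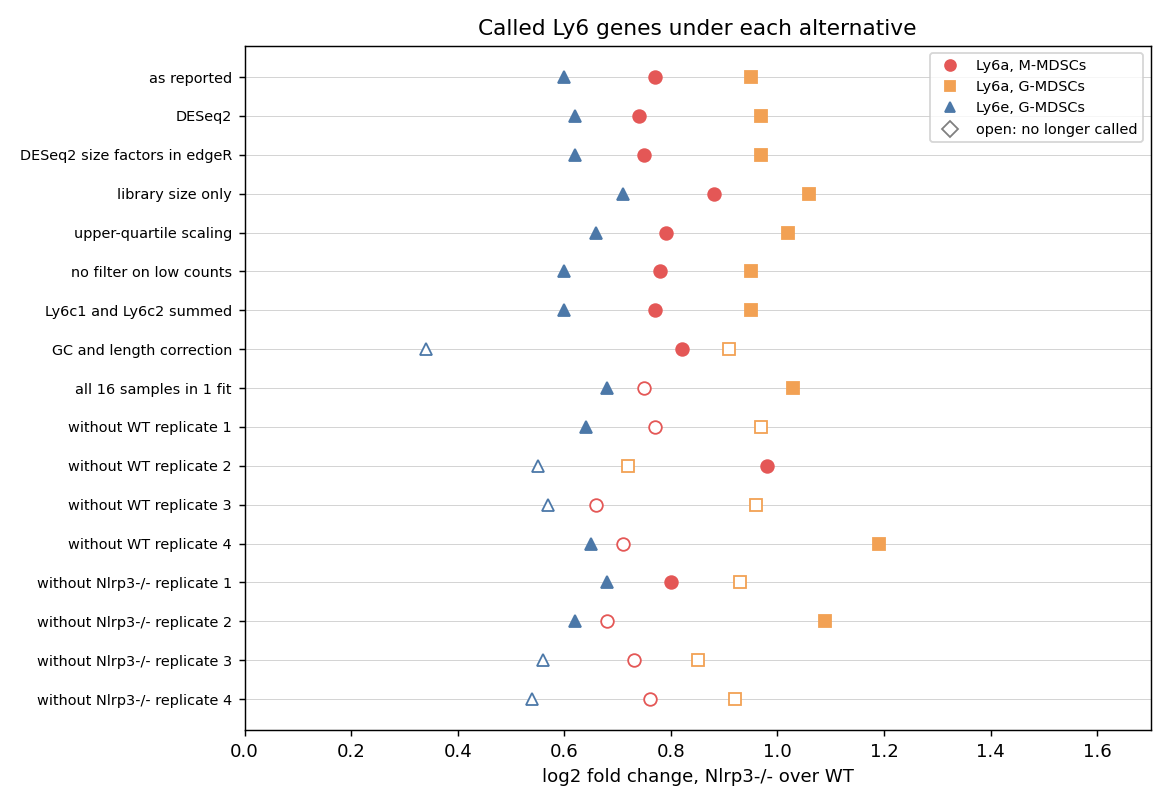
Log2 fold change of Nlrp3-/- over WT (horizontal axis) of Ly6a and Ly6e where called, under each alternative or with 1 replicate of that subset left out (vertical axis), open where the gene is no longer called. The points stay above 0, from 0.34 to 1.19, while many are open.

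The next question was how the subsets differ in the Ly6 genes that the gate did not use. Ly6e was lower in G-MDSCs in both genotypes. In each of the 8 mice the M-MDSCs had more Ly6e than the G-MDSCs, 1.67 to 2.20 times in WT and 1.31 to 1.93 times in Nlrp3-/- mice. The log2 fold change of G-MDSCs over M-MDSCs was -0.92 (SE 0.18, adjusted p = 0.00107 from edgeR) in WT and -0.71 (SE 0.18, adjusted p = 0.00481) in Nlrp3-/- mice. Of all genes tested, 27.1% in WT and 27.4% in Nlrp3-/- mice were called lower in G-MDSCs, so such a difference is common between these subsets. In WT mice Ly6e was -1.06 without M-MDSCs replicate 2, and in Nlrp3-/- mice it was -0.54, under the fold minimum, without M-MDSCs replicate 3. The group means of Ly6e rose in the order WT G-MDSCs, 649 ± 77.4 (SD, n = 4) CPM, Nlrp3-/- G-MDSCs, 1040 ± 149 CPM, WT M-MDSCs, 1230 ± 240 CPM, and Nlrp3-/- M-MDSCs, 1580 ± 420 CPM. The last pair did not differ beyond its spread, and the ranges of Nlrp3-/- G-MDSCs and WT M-MDSCs overlapped.

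Ly6i entered the comparison of the subsets through its M-MDSC counts alone, being under the filter in G-MDSCs, so its levels are given without a test. In WT mice M-MDSCs had 3.89 ± 0.832 (SD, n = 4) CPM and G-MDSCs 1.19 ± 0.790 CPM. The G-MDSC libraries had 0.667, 2.36, 0.968 and 0.777 CPM, all below the M-MDSC libraries. In Nlrp3-/- mice the G-MDSC values of 0.923, 1.73, 2.48 and 1.31 CPM overlapped those of M-MDSCs. The genotype effects of Ly6i in the subsets differed by 0.77 on the log2 scale (SE 0.85, adjusted p = 0.992 from edgeR). That fit cannot decide whether they differ, since it rests on G-MDSC libraries with 2 to 12 counts, under the filter.

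No subset difference of Ly6a passed the test. Its log2 fold change of G-MDSCs over M-MDSCs was 0.01 (SE 0.32, adjusted p = 0.975) in WT and 0.19 (SE 0.21, adjusted p = 0.479) in Nlrp3-/- mice. The sign depended on the scaling, with -0.71 and -0.53 when counts were divided by library size only. That scaling also moved the median of all tested genes from -0.05 to -0.79 in WT and from -0.12 to -0.83 in Nlrp3-/- mice, the TMM factors being 1.20 to 1.46 in M-MDSCs and 0.723 to 0.805 in G-MDSCs. Ly6e stayed lower in G-MDSCs under it, at -1.66 in WT mice. WT mouse replicate 2 stood apart, with 27.5 CPM of Ly6a in its M-MDSCs and 9.46 CPM in its G-MDSCs, the highest and the lowest value of their groups. The mean of Ly6a rose from WT M-MDSCs (19.9 ± 5.29 CPM, SD, n = 4) and WT G-MDSCs (20.3 ± 8.41 CPM), which did not differ beyond their spread, to Nlrp3-/- M-MDSCs (33.7 ± 4.40 CPM) and Nlrp3-/- G-MDSCs (41.4 ± 9.19 CPM), which did not either.

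**Figure D4:**
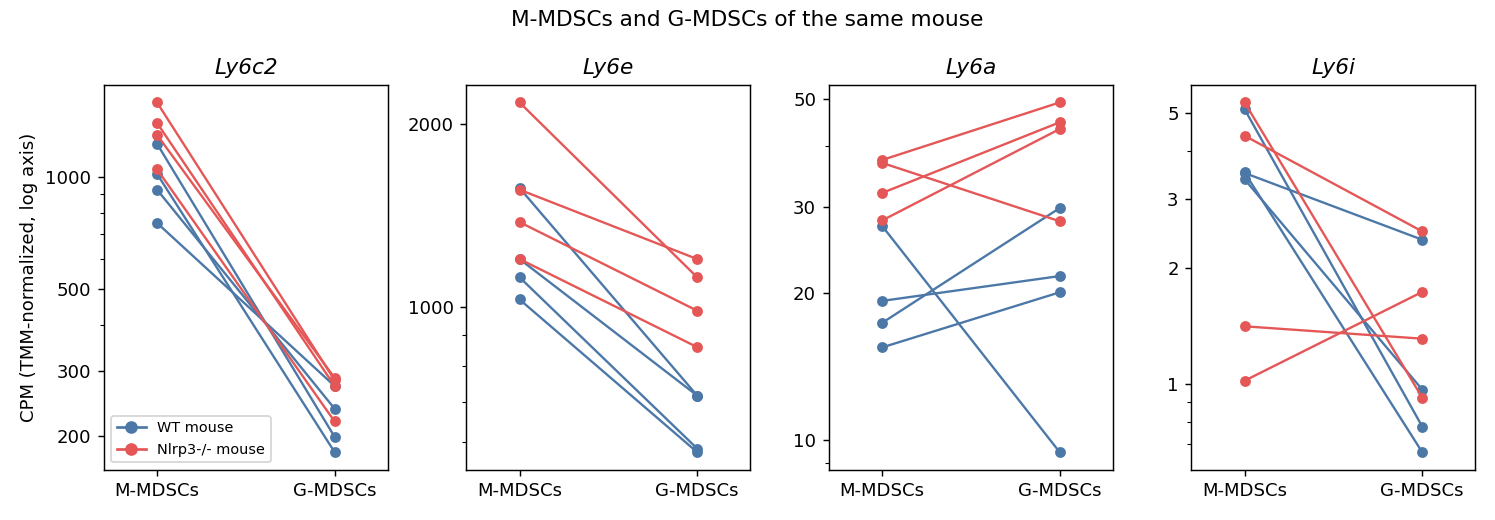
CPM (TMM-normalized, log axes) of Ly6c2, Ly6e, Ly6a and Ly6i in M-MDSCs and G-MDSCs, with a line joining the subsets of 1 mouse. Ly6c2 and Ly6e fall from M-MDSCs to G-MDSCs in all 8 mice, whereas the lines of Ly6a cross and Ly6a is higher in the G-MDSCs of 6 mice. The direction for Ly6a depends on this scaling. With library size only, its log2 fold change of G-MDSCs over M-MDSCs was -0.71 in WT and -0.53 in Nlrp3-/- mice.

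Other genes of the Ly6/uPAR superfamily mostly had few counts. Of 41 listed, 35 had a row, 16 of these had 0 counts in every library and 23 had no more than 3 counts in any. In M-MDSCs 4 were tested and 3 were called higher in Nlrp3-/- mice, with a median log2 fold change of 0.87 against 0.07 for all tested genes. In G-MDSCs 6 were tested and 1 was called higher, with a median of 0.26 against 0.03. Of all genes tested by edgeR, 3.51% in M-MDSCs and 4.70% in G-MDSCs were called higher in Nlrp3-/- mice. DESeq2 called 4 of 4 higher in M-MDSCs and 2 of 6 in G-MDSCs, the added gene being Lynx1 in both. Without WT M-MDSCs replicate 2 all 4 stayed above 0 in M-MDSCs, and edgeR called 1, Ly6d. In the lower direction edgeR and DESeq2 called 0 in either subset, and 0 had an unadjusted p under 0.05. In the higher direction 4 genes in M-MDSCs and 2 in G-MDSCs had such a p from edgeR. Over both directions 3002 of all 9986 genes tested in M-MDSCs and 2997 of 9273 in G-MDSCs had it.

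Ly6d, a surface marker of early B lineage cells, was called higher in both subsets. In M-MDSCs it had 29.2 ± 7.25 (SD, n = 4) CPM in WT and 56.8 ± 14.9 CPM in Nlrp3-/- mice, a log2 fold change of 0.96 (SE 0.24, adjusted p = 0.0249 from edgeR). In G-MDSCs it had 76.5 ± 5.82 and 122 ± 26.6 CPM, a log2 fold change of 0.59 (SE 0.18, adjusted p = 0.0334) just past the fold minimum. In M-MDSCs it was 1.07 (adjusted p = 0.0406) without WT M-MDSCs replicate 2. Markers of B and plasma cells summed to 337 to 591 CPM in WT and 330 to 612 CPM in Nlrp3-/- M-MDSCs, and to 455 to 684 and 536 to 730 CPM in G-MDSCs, and their part in the Ly6d values was not tested. Plaur, the urokinase receptor, was called in M-MDSCs (0.71, SE 0.18, adjusted p = 0.0266) and not in G-MDSCs (0.30, SE 0.29, adjusted p = 0.510). Cd177, which encodes a neutrophil surface protein, was called in M-MDSCs (0.78, SE 0.19, adjusted p = 0.0233), where it had 40.7 ± 6.82 and 68.8 ± 12.7 CPM, and not in G-MDSCs (0.19, SE 0.22, adjusted p = 0.591). Its genotype effects differed by -0.47 (SE 0.30, adjusted p = 0.992), and those of Plaur by -0.30 (SE 0.38, adjusted p = 0.992), so neither was shown to differ between the subsets. The M-MDSC calls of Plaur (0.76, adjusted p = 0.0599) and Cd177 (0.75, adjusted p = 0.0746) were lost without WT M-MDSCs replicate 2.

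Lynx1, a modulator of nicotinic acetylcholine receptors, had 1.66 ± 0.957 (SD, n = 4) CPM in WT and 4.58 ± 1.35 CPM in Nlrp3-/- M-MDSCs. All 4 Nlrp3-/- libraries lay above all 4 WT libraries in both subsets, as for 7.58% of all genes tested in M-MDSCs and 12.0% in G-MDSCs. Its counts were low, 4 to 16 in WT and 25 to 36 in Nlrp3-/- M-MDSCs, and 0 to 8 and 14 to 28 in G-MDSCs. The log2 fold changes of 1.47 (SE 0.48, adjusted p = 0.0651) and 1.74 (SE 0.66, adjusted p = 0.0823) were not called by edgeR. DESeq2 called both, at 1.46 (adjusted p = 0.0423) and 1.78 (adjusted p = 0.0344). Lypd6b, which passed the filter on low counts through G-MDSCs alone, had 19.4 ± 7.86 CPM in WT G-MDSCs against 0.847 ± 0.443 CPM in WT M-MDSCs. In G-MDSCs its genotype difference was 0.22 (SE 0.29, adjusted p = 0.641), and that of Ly6g5b was -0.57 (SE 0.52, adjusted p = 0.475). Ly6d, Plaur and Cd177 were called higher in G-MDSCs than in M-MDSCs in both genotypes, with log2 fold changes of 1.38, 1.17 and 1.38 in WT and 0.99, 0.75 and 0.79 in Nlrp3-/- mice. Such a difference is common, as 2557 of all 9739 genes tested in WT and 2383 of 10071 in Nlrp3-/- mice were called higher in G-MDSCs. Ly6g5b, which also passed through G-MDSCs alone, had 4.63 CPM in WT G-MDSCs and 1.51 CPM in WT M-MDSCs. Lynx1 had a log2 fold change between subsets of 0.20 (SE 0.44, adjusted p = 0.727) in Nlrp3-/- mice.

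Genes that build the GPI anchor and genes that interferons induce were counted as the pathways nearest to the family. Of 25 GPI anchor genes tested in M-MDSCs 0 were called by edgeR and 1 by DESeq2, 6 had an unadjusted p under 0.05, and the median log2 fold change was 0.21, and of 21 tested in G-MDSCs edgeR called 1, Dpm2, a subunit of the mannose donor synthase (1.03, SE 0.21, adjusted p = 0.00377). There DESeq2 called 2, and 3 higher and 2 lower genes had an unadjusted p under 0.05. Of all genes tested by edgeR, 3002 of 9986 in M-MDSCs and 2997 of 9273 in G-MDSCs had such a p. The GPI anchor genes did not exceed that share. The interferon list held called genes in both directions. Of all genes tested, 351 of 9986 were called higher and 709 lower in M-MDSCs, and 436 of 9273 higher and 1086 lower in G-MDSCs. In M-MDSCs 3 of 30 were called higher and 2 lower, with a median of 0.22, the smallest p being those of Ifit3 (1.28, SE 0.15) and the GTPase gene Ifi47 (0.88, SE 0.18) on the one side and Xaf1 (-1.90, SE 0.40) and Trim30a (-0.61, SE 0.17) on the other. In G-MDSCs 2 of 27 were called higher, Ifit3 (1.34, SE 0.28) and the transcription factor gene Irf7 (0.80, SE 0.17), and 5 lower, among them Trim30a (-0.91, SE 0.16), with a median of 0.07. DESeq2 called 3 higher and 2 lower in M-MDSCs, and 3 higher and 4 lower in G-MDSCs. On this list 9 higher and 4 lower genes in M-MDSCs, and 7 higher and 5 lower in G-MDSCs, had an unadjusted p under 0.05 from edgeR. Both shares exceeded those of all genes tested, and the reason was not tested.

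Among the other marker lists few genes were called. For comparison, 351 of all 9986 genes tested were called higher and 709 lower in M-MDSCs, and 436 of 9273 higher and 1086 lower in G-MDSCs. In M-MDSCs 2 of 16 classical monocyte markers were lower, 1 of 9 patrolling monocyte and 2 of 14 neutrophil markers higher, 1 of 10 B cell markers lower and 1 of 2 eosinophil and basophil markers higher. The other 12 neutrophil markers had negative log2 fold changes that were not called, with a median of -0.65 for the list, and without WT M-MDSCs replicate 2 the log2 fold change was positive for 12 of the 14, with a median of 0.36 and 1 called higher. In G-MDSCs 1 of 14 classical monocyte markers was higher, 1 of 16 neutrophil markers lower, 1 of 13 T and NK cell markers lower, 1 of 11 B cell markers higher and 1 lower, and 1 of 7 erythroid and platelet markers higher. By edgeR 0 dendritic cell and 0 endothelial markers were called in either subset, 0 erythroid and platelet markers in M-MDSCs, and 0 patrolling monocyte and 0 eosinophil and basophil markers in G-MDSCs. Of these, 1 dendritic cell marker in each subset, 1 patrolling monocyte marker and 2 eosinophil and basophil markers had an unadjusted p under 0.05, and DESeq2 called 1 dendritic cell marker in M-MDSCs and 1 eosinophil and basophil marker in G-MDSCs. Such a p from edgeR was common, with 3002 of 9986 genes in M-MDSCs and 2997 of 9273 in G-MDSCs.

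The genes whose pattern over the 16 libraries lay nearest to each Ly6 gene were found by the root-mean-square difference of log2 CPM, each gene centred on its own mean, among 10696 genes. Ly6e was matched most closely, by Ndufv3, a subunit of respiratory complex I (0.135), and Eif2b2, a translation initiation factor subunit (0.139). Ly6c2 followed, with Rpn2, of the oligosaccharyltransferase (0.189), and Bscl2, which encodes seipin (0.230). For Ly6a the nearest were Ubald1 (0.302) and Pld3 (0.304), for Ly6i Zswim1 (0.383) and Fam69a (0.481), and for Ly6c1 1700030K09Rik (0.456) and Pfdn4 (0.565). The distances were larger for the genes with few counts.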

How the data were processed

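Sequencing covered 16 samples, each 1 subset of 1 mouse, numbered 1 to 4 within a group by the labels. The authors mapped QuantSeq reads to mm10 with HISAT2 2.1.0, counted them by strand with HTSeq, and deposited a raw count per gene symbol, used here unchanged. The number of amplification cycles is not tied to libraries. Genes and transcript ends were taken from GENCODE (GRCm38), which matched 98.5% of the symbols, and promoters from RefSeq.

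Counts were filtered with filterByExpr, normalized by TMM and fitted by edgeR 4.0.16 (quasi-likelihood, R 4.3.3) over all genes within each comparison. SE is the log2 fold change divided by the square root of F. Alternatives used DESeq2 1.42.0, other scalings, no filter, a correction by splines (4 degrees of freedom each) of GC content and length, a replicate block, and left out each sample. The fit of the gene lists without WT M-MDSCs replicate 2 was chosen after seeing the data. Figures used matplotlib 3.10.9. Fits were tested on simulated data. Members and lists were chosen with earlier results of these data known. By rule, the text names the members, tested genes of their superfamily, the called list genes with the smallest p, and the nearest genes. Deviations of M-MDSCs and G-MDSCs from the same mouse, paired by the mouse named in the labels, correlated at 0.01 to 0.40 in 8 pairs. No 2 libraries of a group were identical, with a chi-square per degree of freedom of 7.25 to 54.5 in 24 pairs. Limits from counts cover counting error only. Ly6g and 1 gene of the interferon list are not reported here.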

Additional observations from a re-analysis of the deposited data

Results flagged for a closer look

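Among 20 checks for a library far from the others of its group, made for 5 genes in 4 groups, 2 passed Dixon's 95% critical ratio, where chance flags about 1 in 20. Ly6c1 in Nlrp3-/- G-MDSCs had a ratio of 0.834, replicate 2 having 1 count (0.246 CPM) against 2.28 to 3.14 CPM in the other libraries. Ly6i in WT M-MDSCs had a ratio of 0.904, replicate 4 having 15 counts (5.13 CPM) against 3.38 to 3.52 CPM in the others. Both rest on few counts, and replicate 4 of WT M-MDSCs is the library with the fewest counts in all, 2295967.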

How the results depend on the processing

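Alternatives were run for the Ly6 genes and for the counts of called genes. No genotype difference of a Ly6 gene within a subset reversed. In M-MDSCs 1 Ly6 gene and 1060 genes were called. These became 652 genes under the correction for GC content and length, 425 genes and 0 Ly6 genes with the replicate block, 37 and 0 with both, and 0 Ly6 genes in the fit of all 16 samples. In G-MDSCs 2 Ly6 genes and 1522 genes became 981 genes and 0 Ly6 genes under the correction, 985 and 1 with the block, and 384 and 0 with both. WT and Nlrp3-/- samples with the same number are different animals and share only that number (r of -0.45 to 0.02 in 8 pairs). With the replicate block Ly6a in M-MDSCs had 0.80 (adjusted p = 0.0787 from edgeR) and Ly6e in G-MDSCs 0.59 (adjusted p = 0.0692). Pairing the subsets by mouse changed no call of a Ly6 gene between subsets. The cause of these changes was not tested.

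Leaving out each sample in turn gave 450 to 1783 called genes and 0 to 1 Ly6 genes in M-MDSCs, 1104 to 1544 and 0 to 2 in G-MDSCs, 4838 to 5272 and 2 between subsets in WT mice, 4810 to 5106 and 0 to 1 in Nlrp3-/- mice, and 2 to 5 and 0 for the difference of the genotype effects, which had 8 called genes by DESeq2 and 5 with no filter. The share of called genes lower in Nlrp3-/- mice was 66.9% in M-MDSCs and 71.4% in G-MDSCs, and 45.4% and 51.9% with library size only, 56.7% and 56.2% under the GC correction, and 60.9% in G-MDSCs by upper quartiles. Between subsets 50.8% and 53.6% were lower in G-MDSCs, 81.3% and 81.5% with library size only and 61.8% and 61.5% by upper quartiles. With library size only 2 Ly6 genes were called between subsets in Nlrp3-/- mice, Ly6i then passing at -1.74. The counts of Ly6 genes between subsets leave out Ly6c1 and Ly6c2, the genes of the gated protein Ly6C. They include Ly6i, which passed the filter through M-MDSCs alone, so a call of Ly6i is no support for a subset difference. Ly6i was called in WT mice (-1.66) and not in Nlrp3-/- mice (-1.02).

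The subset difference of Ly6a in WT mice, 0.01, turned to -0.71 with library size only, -0.21 by upper quartiles, -0.04 with no filter, -0.02 with the replicate block, and -0.21 to -0.01 without M-MDSCs replicate 1, 3 or 4 or G-MDSCs replicate 1 or 4 (-0.04, -0.14, -0.09, -0.01 and -0.21), against up to 0.26 without another replicate. In Nlrp3-/- mice it turned to -0.53 with library size only. Without 1 replicate the difference of the genotype effects was -0.09 to 0.52 for Ly6a, reversed without WT M-MDSCs replicate 2, and -0.05 to 0.73 for Ly6c1, reversed without WT M-MDSCs replicate 1. Ly6c1 and Ly6i are limited by depth, with 1 to 56 counts per library.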
